A study of Rattus norvegicus with 2 samples.

Results

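The 9 genes encoding the neuronal nicotinic acetylcholine receptor subunits were examined in sympathetic neurons of the rat stellate ganglion, the ganglion that sends most sympathetic fibers to the heart. They are the alpha subunit genes Chrna2, Chrna3, Chrna4, Chrna5, Chrna6 and Chrna7 and the beta subunit genes Chrnb2, Chrnb3 and Chrnb4. They were chosen by gene symbol and by no rule on their levels, although earlier results of these data were known. All 9 have a line among the 25395 genes of the deposited values. The data hold 1 library of normotensive Wistar rats and 1 library of prehypertensive SHRs, both from animals aged 5 to 6 weeks. The animals were male according to the methods of the paper. No treatment or transgene separates the groups, so strain is the labelled difference. The number of animals behind each library was not given in the sources used here. The ganglia were dissociated with collagenase and trypsin and sequenced cell by cell in droplets (scRNAseq). Each gene has 1 deposited value per library, averaged over the neuron cluster. With 1 library per strain there is no replicate spread, so no test, SD or interval is given for any strain difference.

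Nicotinic receptors are pentameric cation channels opened by acetylcholine, which preganglionic fibers release onto sympathetic neurons. They carry the fast excitatory synaptic current of autonomic ganglia. The ganglionic type is built around the alpha3 and beta4 subunits and can also take up alpha5 or beta2. The alpha7 subunit forms channels of its own that pass calcium readily, and the alpha4 and beta2 pair is the main receptor of the brain. Alpha5 and beta3 are accessory subunits that need other subunits to make a channel, and alpha6 is best known from catecholamine neurons of the midbrain and from the retina.

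Chrna5, Chrna3 and Chrnb4 lie side by side in the genome. In the GRCr8 assembly Chrna5 is read from the plus strand and Chrna3 and Chrnb4 from the minus strand, and the spans of the 3 genes do not overlap. RefSeq promoter sequences matched 6 of the 9 members, and each runs from 250 bases before to 50 bases after the gene start. The promoters of the 4 subunit genes that averaged at least 0.1 per 10000 are shown, because these 4 genes carry nearly all of the subunit counts. Coordinates are those of GRCr8, each sequence is written 5′ to 3′ along the gene, and capitals mark GC boxes (GGGCGG, or CCGCCC on the other strand), the motif bound by Sp1 and Sp3.
Chrna3, chr8:64311202-64311501, minus strand: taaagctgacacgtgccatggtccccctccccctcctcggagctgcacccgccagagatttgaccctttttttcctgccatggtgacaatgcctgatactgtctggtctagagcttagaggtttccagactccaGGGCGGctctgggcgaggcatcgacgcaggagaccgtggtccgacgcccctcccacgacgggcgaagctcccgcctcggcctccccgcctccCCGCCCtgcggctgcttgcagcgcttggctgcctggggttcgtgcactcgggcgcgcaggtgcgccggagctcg
Chrnb4, chr8:64333060-64333359, minus strand: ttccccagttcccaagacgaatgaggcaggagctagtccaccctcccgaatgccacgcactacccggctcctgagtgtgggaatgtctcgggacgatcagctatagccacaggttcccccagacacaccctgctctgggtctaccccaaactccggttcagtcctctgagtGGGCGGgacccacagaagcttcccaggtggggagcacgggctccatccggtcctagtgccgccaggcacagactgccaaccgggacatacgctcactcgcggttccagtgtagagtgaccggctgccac
Chrna5, chr8:64265629-64265928, plus strand: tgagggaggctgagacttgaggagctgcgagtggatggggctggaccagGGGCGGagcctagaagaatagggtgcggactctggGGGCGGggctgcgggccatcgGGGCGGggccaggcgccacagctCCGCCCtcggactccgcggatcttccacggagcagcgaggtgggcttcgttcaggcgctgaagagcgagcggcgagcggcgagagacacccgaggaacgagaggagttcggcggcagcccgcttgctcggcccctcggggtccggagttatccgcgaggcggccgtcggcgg
Chrna7, chr1:126249080-126249379, minus strand: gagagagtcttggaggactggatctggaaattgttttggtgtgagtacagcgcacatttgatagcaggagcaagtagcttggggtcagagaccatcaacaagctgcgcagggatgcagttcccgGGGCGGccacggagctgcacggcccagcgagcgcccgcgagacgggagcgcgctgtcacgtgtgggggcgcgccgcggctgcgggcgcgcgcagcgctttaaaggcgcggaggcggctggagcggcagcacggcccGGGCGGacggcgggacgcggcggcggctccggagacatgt

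The Chrna5 promoter held 4 GC boxes, those of Chrna3 and Chrna7 held 2 each, and that of Chrnb4 held 1, which begins 79 bases before the gene start. Its sequence was 62.3% G or C, against 66.7% for Chrna3, 68.3% for Chrna7 and 71.3% for Chrna5, and the median of all promoters was 51.7%. At least 1 GC box was present in 33.1% of all 33469 promoters and in 66.0% of the 6391 promoters of genes averaging at least 0.1 per 10000. The E-box CAGCTG, which overlaps the wider E-box pattern CANNTG, was in 0 of the 6 matched member promoters and in 15.1% of all promoters. CANNTG itself was found in 4 of the 6 and in 72.1% of all promoters. The number of GC boxes did not follow the transcript levels given next, since Chrna5 had the most boxes and a far lower level than Chrna3.

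Levels are given per 10000 counts of a cell, as means over the neurons, obtained by reversing the deposited natural log. The chemistry counts molecules at the 3′ end of transcripts, so these levels were not divided by gene length, although how well a 3′ end is annotated can still shift one gene against another. A gene with 1 count in 1 neuron has a mean set by the total of that neuron alone, so such genes share values. In Wistar 199 values were each shared by at least 3 genes, with a median of 0.000327 per 10000, and in SHR 111 values were, with a median of 0.000906. The smallest mean above 0 was 0.000140 in Wistar and 0.000391 in SHR. These values give the scale of a single count, but the number of neurons and their depths remain unknown.

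Chrna3, the gene of the alpha3 subunit that all ganglionic receptors of the common type need, was by far the most abundant member in both strains. It averaged 11.4 per 10000 in Wistar neurons and 12.3 in SHR neurons. Among all 25395 genes it ranked 74 in Wistar and 79 in SHR, and so stood beside sympathetic markers, with Th (tyrosine hydroxylase) at 10.2 and 10.1 per 10000. Chrna3 made up 93.8% of the summed level of the 9 members in Wistar and 95.5% in SHR.

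Chrnb4, which encodes the usual beta partner of alpha3, came next, with 0.338 per 10000 for Wistar and 0.271 for SHR. Chrna5, the accessory alpha subunit gene of the same cluster, averaged 0.263 per 10000 in Wistar neurons and 0.204 in SHR neurons. The 2 genes were close to each other in both libraries, with Chrnb4 at 1.29 times the Chrna5 level in Wistar and 1.32 times in SHR. The Chrna3 level was 33.8 times that of Chrnb4 in Wistar and 45.5 times in SHR. The summed alpha level was 34.3 times the summed beta level in Wistar and 45.7 times in SHR, although each receptor channel of this type contains both kinds of subunit.

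Chrna7, the gene of the alpha7 subunit, averaged 0.145 per 10000 in Wistar neurons and 0.0910 in SHR neurons. Its average over both libraries, 0.118, was just inside the minimum of 0.1 used for counts of genes, and that of Chrnb2, the next below, was 0.00559. Chrnb2, the other beta subunit found in ganglia, stood at 0.00617 per 10000 for Wistar and 0.00501 for SHR. Chrnb4 was thus 54.9 times as high as Chrnb2 in Wistar and 54.0 times in SHR, and made up 98.2% of the beta counts in both.

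The remaining members were at or near the level of single counts. Chrna2 was listed at 0.000398 per 10000 in Wistar, a value that 3 other genes shared, and at 0.00277 in SHR, which is 3.06 times the median shared value there. Chrna4, the alpha subunit gene of the main brain receptor, was listed at 0.000299 per 10000 in Wistar, a value shared with 2 other genes, and at 0 in SHR. Chrna6 and Chrnb3 were listed at 0 in both libraries. The order of the members was therefore Chrna3, Chrnb4, Chrna5, Chrna7 and Chrnb2 in both strains. Without replicates it cannot be said whether neighbors in this order, Chrnb4 and Chrna5 above all, differ beyond a spread between samples.

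**Figure D1:**
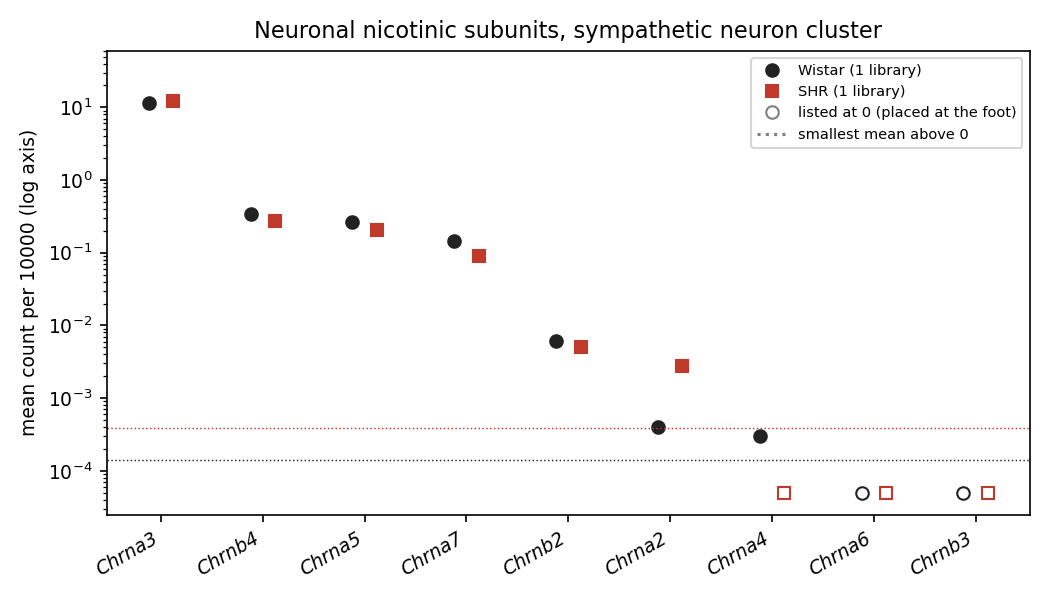
Mean count per 10000 of each neuronal nicotinic subunit gene on a log axis, with Wistar as black circles, SHR as red squares, 1 library each, open symbols at the foot for genes listed at 0, and dotted lines at the smallest mean above 0 of each library. Chrna3 stands at 11.4 and 12.3, far above Chrnb4 and Chrna5, and Chrna2 and Chrna4 lie near the dotted lines.

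The neuron cluster carried its defining transcripts. The paper used Th, Dbh and Slc6a2 among its markers for these neurons, so their presence is no separate check of identity. All 10 sympathetic neuron markers exceeded the minimum in the average of both libraries, and they summed to 239.1 per 10000 for Wistar and 273.0 for SHR. The general neuronal genes among them, such as Prph and Tubb3, carried most of this sum, and its increase came from them alone. The noradrenergic markers were lower in SHR to unlike degrees. Dbh (10.2 and 6.36 per 10000), Ddc (7.05 and 3.44) and Slc18a2 (5.36 and 3.63) were lower in SHR. Th (10.2 and 10.1) and Slc6a2 (15.9 and 15.2) changed little, by -0.72% and -4.04%. Markers of other cells were low, and the glial, fibroblast and immune sums were lower in SHR. The 8 satellite glia and Schwann cell markers summed to 2.93 per 10000 in Wistar and 1.16 in SHR, with Kcnj10 and Mag at 0 in SHR. The 5 fibroblast markers, all above 0 in both libraries, summed to 1.83 and 0.352. The 6 immune markers, likewise all above 0, summed to 1.21 and 0.399. The endothelial markers summed to 0.0668 and 0.0724, and the smooth muscle, erythrocyte and chromaffin markers each to at most 0.107 per 10000 in either library. Their part in the subunit differences was not tested. Fewer neurons expressing a gene and less RNA per neuron cannot be told apart in these means. The paper describes sympathetic neuron populations with and without neuropeptide Y, and their mix in each library cannot be told from these means either.

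Between the strains, Chrna3 was slightly higher in SHR and the other subunits past the minimum were lower, and this held under each scaling of the libraries tried. Chrna3 differed by 7.74%, which is 0.10 in log2 of 1 plus the mean. Chrnb4 differed by -20.0% (log2 difference -0.075) and Chrna5 by -22.2% (log2 difference -0.068). Chrna7 had the lowest ratio of these genes, with a change of -37.4% and a log2 difference of -0.070. Chrnb2 changed by -18.8%, from a level so low that its log2 difference was -0.0017. Because Chrna3 outweighs the rest, the summed level of all members was 5.78% higher in SHR, at 12.9 against 12.2 per 10000. The sum without Chrna3 went from 0.754 per 10000 in Wistar to 0.574 in SHR, a change of -23.9%.

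The same measures were then taken over the whole transcriptome. Of 7621 genes that averaged at least 0.1 per 10000, 65.6% were lower in SHR, and the median change was -13.7%, or -0.21 as the log2 of the SHR mean over the Wistar mean. Of the 9 members 4 passed this minimum, and 3 of these 4 were lower. A decrease of at least 1.5-fold was found in 26.5% of all genes past the minimum and in 1 of the 4 members, Chrna7, whose Wistar mean was 1.60 times the SHR mean. An increase of that size was found in 5.22% of all genes and in 0 of the 4 members. The median log2 ratio of the 4 members was -0.34. Relative to the median gene, the log2 ratio was -0.15 for Chrna5, -0.11 for Chrnb4, -0.46 for Chrna7 and 0.32 for Chrna3. In the order of log2 ratios from the lowest, Chrna7 stood at percentile 21.9 of all genes past the minimum, Chrna5 at 39.4, Chrnb4 at 42.1 and Chrna3 at 72.8.

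**Figure D2:**
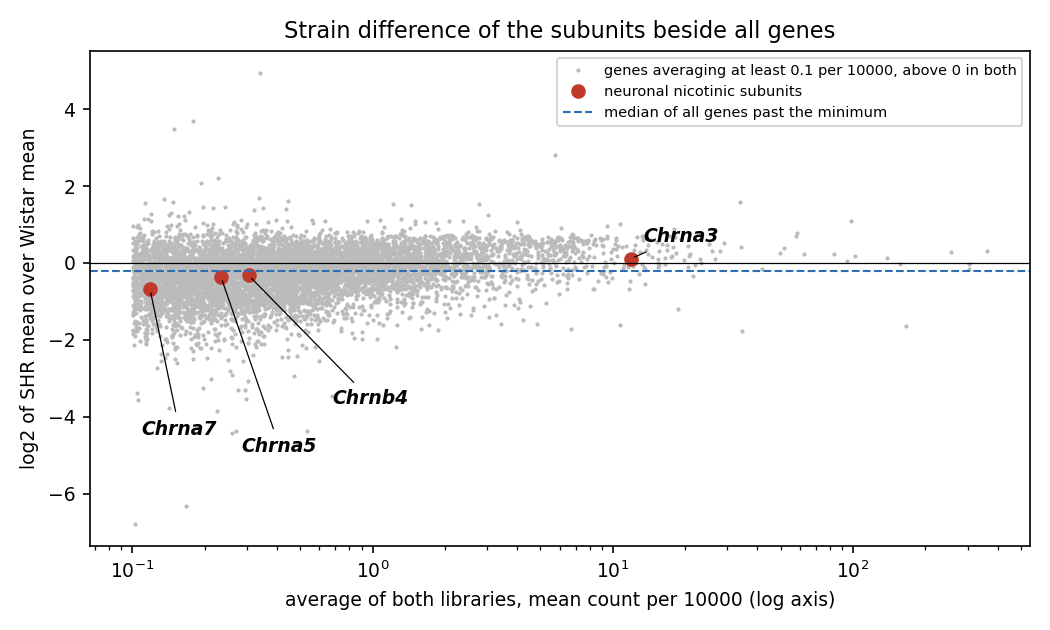
Log2 of the SHR mean over the Wistar mean (vertical axis) against the average of both libraries per 10000 (horizontal log axis), with genes past the minimum and above 0 in both libraries as gray points, the 4 nicotinic subunit genes past the minimum in red and the median of all genes past the minimum, -0.21, as a dashed line. Chrna3 lies above the dashed line and Chrnb4, Chrna5 and Chrna7 below it, all inside the cloud of other genes.

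Across all genes the change also went with gene length, taken as the span in GRCr8 and known for 95.6% of the genes past the minimum. The genes were split by span into 10 groups of equal size. Chrna7 fell in the group of the longest genes, where the median change was -31.7% and 85.6% of genes were lower in SHR. In that group 47.1% were lower by at least 1.5-fold. Chrna5 was in the 6th group (median -15.1%) and Chrnb4 in the 5th (median -13.9%). Chrna3 was in the 4th group, where the median change was -10.8% and 65.0% of genes were lower. Against the median of its own length group, Chrna7 thus differed by -5.70 percentage points, Chrnb4 by -6.19, Chrna5 by -7.16 and Chrna3 by 18.5. The part of gene length in the subunit differences was not tested.

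**Figure D3:**
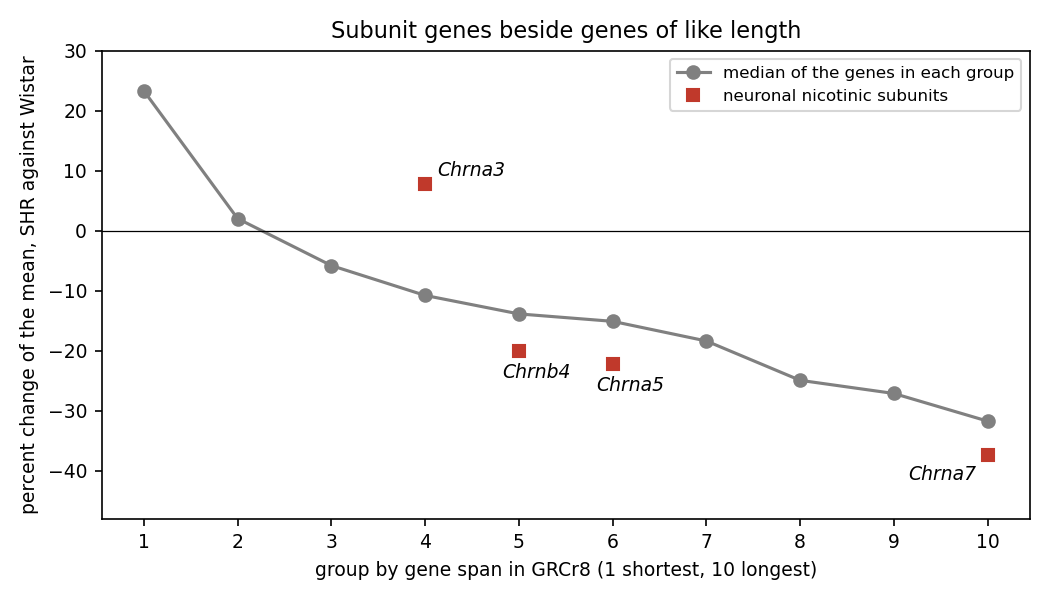
Median percent change of the mean, SHR against Wistar, for genes in each of the 10 groups by gene span (gray line, 1 shortest to 10 longest), with the 4 subunit genes as red squares at their own group. Chrna7, Chrna5 and Chrnb4 lie a little below the line, at -37.4%, -22.2% and -20.0%, and Chrna3 lies above it at 7.74%.

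The genes on either side of the cluster were compared to place the 3 linked subunit genes in their surroundings. Toward Chrna5 the 3 nearest named protein-coding genes were Psma4 (a proteasome subunit), Hykk (a hydroxylysine kinase) and Ireb2 (an iron regulatory protein). Psma4 averaged 2.91 per 10000 in Wistar neurons and 2.07 in SHR neurons, Ireb2 had 0.211 and 0.0985, and Hykk was listed at 0.00200 and 0. Beyond Chrnb4 came Ube2q2 (a ubiquitin conjugating enzyme) at 0.219 and 0.294, Fbxo22 (an F-box protein) at 0.432 and 0.347, and Nrg4 (a neuregulin) at 0 and 0.000863. Chrna3 was therefore the most abundant of these 9 neighboring genes in both strains. Of the 4 flanking genes past the minimum, 3 were lower in SHR, beside 65.6% of all genes. Ireb2 alone was lower by at least 1.5-fold, beside 26.5% of all genes. With the median ratio of all genes set to 1, Ireb2 was lower and Ube2q2 higher by that fold, beside 17.3% and 13.2% of all genes. The median log2 ratio of the 4 flanking genes was -0.40 against -0.21 over all genes.

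**Figure D4:**
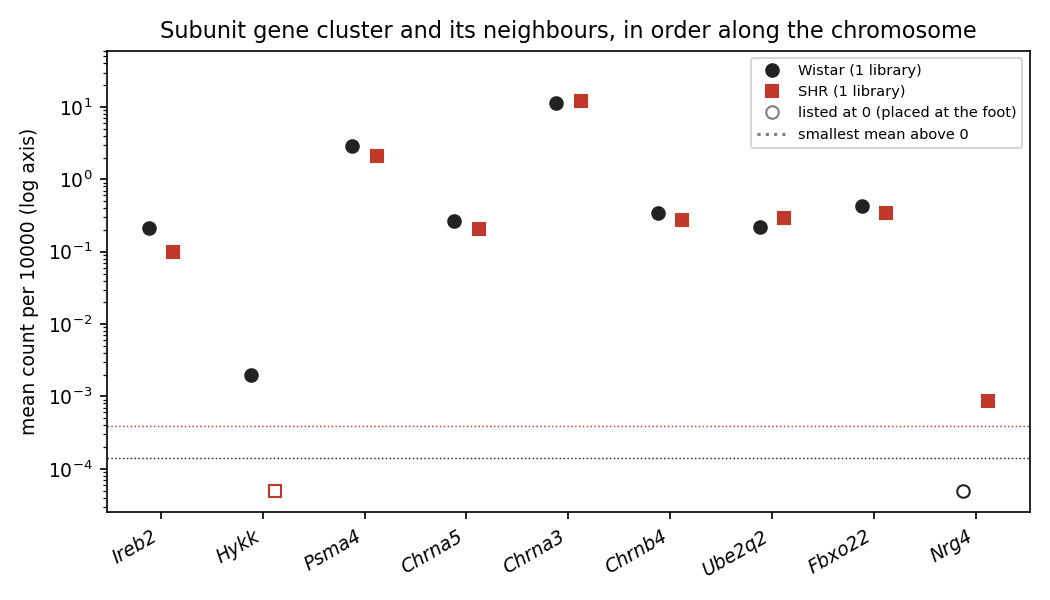
Mean count per 10000 on a log axis for Chrna5, Chrna3, Chrnb4 and the 3 nearest named protein-coding genes on each side, in chromosomal order, with Wistar as black circles, SHR as red squares, 1 library each, open symbols for genes listed at 0, and dotted lines at the smallest mean above 0 of each library. Chrna3 is the highest of the 9 genes, at 11.4 and 12.3, and its neighbors Chrna5 and Chrnb4 lie below 0.4.

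The subunit genes of the muscle and cochlear nicotinic receptors were sparse. Of 7 such genes 6 have a line, and none reached the minimum. Chrna1, the alpha subunit gene of the muscle receptor, had the highest level, 0.0482 per 10000 for Wistar and 0.0176 for SHR. It was above Chrnb2 in both libraries. Chrnb1 followed at 0.00803 and 0.00397, Chrne and Chrna10 were below 0.001 in both, and Chrna9 and Chrnd were listed at 0. The serotonin-gated channels belong to the same family of pentameric receptors. Htr3a, their principal subunit gene, stood at 0.0942 per 10000 for Wistar and 0.00904 for SHR, and Htr3b at 0.000968 and 0.

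Some genes for receptor assembly were more abundant than the subunit genes other than Chrna3. Tmem35a, which encodes the chaperone NACHO that promotes assembly of nicotinic receptors, averaged 6.48 per 10000 in Wistar neurons and 5.95 in SHR neurons. Canx (calnexin, a chaperone of the endoplasmic reticulum) was at 6.50 and 5.21. Ric3, another chaperone needed above all by alpha7 receptors, was far lower, at 0.261 and 0.203, close to Chrna5. All 6 listed assembly genes passed the minimum and 0 of them reached a 1.5-fold difference in either direction, beside 26.5% of all genes lower and 5.22% higher by that fold, with a median log2 ratio of -0.18. As deposited 5 were lower in SHR, beside 65.6% of all genes. Only 4 were when mitochondrial and ribosomal protein genes did not count toward the total, and 3 when the median ratio of all genes was set to 1. Ubxn2a, which encodes a protein that binds alpha3 and alters its delivery, was higher in SHR in each case, at 0.0862 for Wistar and 0.121 for SHR. Its average, 0.104, was barely past the minimum. It passed 1.5-fold only with the median ratio set to 1, where 13.2% of all genes were higher by that fold.

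Proteins of the Ly6 family resemble snake alpha toxins in fold, and several bind nicotinic receptors and alter their gating or assembly. Of 10 listed genes 3 passed the minimum. Lynx1, the best studied of them, averaged 1.85 per 10000 in Wistar neurons and 3.54 in SHR neurons, 1.91 times as high, whereas 5.22% of all genes were higher by at least 1.5-fold. Ly6e was at 2.18 and 2.84, and Cd59, known mainly as an inhibitor of complement, at 6.83 and 5.57. Lypd1 was below the minimum, at 0.0257 per 10000 for Wistar and 0.0735 for SHR. Nearer the scale of single counts, Ly6h was listed at 0.00123 and 0.0132 and Lypd6b at 0.000666 and 0.00135. Slurp1, at 0.00132 and 0, and Ly6g6e, at 0.00224 and 0, went the other way. The median log2 ratio of the 3 Ly6 genes past the minimum was 0.38, against -0.21 over all genes. With the median ratio of all genes set to 1, Lynx1 and Ly6e were higher by at least 1.5-fold, beside 13.2% of all genes.

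Among 12 genes for scaffolds and adhesion proteins of cholinergic and other synapses, 8 passed the minimum. Of these 6 were lower in SHR, beside 65.6% of all genes, and 5 by at least 1.5-fold, beside 26.5%. That last share was 47.1% in the group of the longest genes, and the lengths of the genes on this list were not examined. With the median ratio of all genes set to 1, as many genes are lower as higher by construction. In that setting 5 of the 8 were lower. By 1.5-fold 3 were lower and 1 was higher, beside 17.3% and 13.2% of all genes. The neuroligin gene Nlgn2 was at 0.206 per 10000 for Wistar and 0.115 for SHR, and Nlgn3 at 0.211 and 0.135. Apc, whose protein helps to place alpha3 receptors at ganglionic synapses, was at 1.48 and 0.892, and its partner Mapre1 was at 1.47 and 1.55. Iqgap1, a further scaffold of that complex, was at 0.196 and 0.0573. Dlg4, the gene of PSD-95, was the other one higher in SHR, at 0.738 and 0.970. It is also among the markers that the paper used for sympathetic neurons. The median log2 ratio of the 8 genes was -0.69.

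The machinery that ends the acetylcholine signal was abundant. Ache (acetylcholinesterase) averaged 6.01 per 10000 in Wistar neurons and 5.64 in SHR neurons, and Bche (butyrylcholinesterase) 2.99 and 3.71. Prima1, which anchors acetylcholinesterase to the membrane of neurons, was at 0.237 and 0.214. Chat (choline acetyltransferase) was listed at 0 in both libraries, and Slc18a3, the vesicular acetylcholine transporter, at 0.000393 and 0.000523. Of the muscarinic receptor genes Chrm2 was the highest, at 0.571 and 0.244, and Chrm1 was at 0.0577 and 0.0307. Of the 12 genes on this list 5 passed the minimum and 4 of these were lower, beside 65.6% of all genes. Lower by at least 1.5-fold were 2 (Chrm2 and the choline transporter gene Slc5a7), beside 26.5% of all genes. With the median ratio of all genes set to 1, where as many genes are lower as higher, only these 2 were lower. Both still passed that fold, beside 17.3% of all genes. The median log2 ratio of the 5 was -0.15.

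Of 10 transcription factor genes studied at the subunit cluster or in the sympathetic lineage, 7 passed the minimum. Of these 5 were lower in SHR, beside 65.6% of all genes. Of the 7 genes 1 (Sp1) was lower and 1 (Hand2) was higher by at least 1.5-fold, beside 26.5% and 5.22% of all genes. With the median ratio of all genes set to 1, where as many genes are lower as higher, 4 were lower. In that setting 1 was lower and 2 were higher by 1.5-fold, beside 17.3% and 13.2% of all genes. Phox2a, a homeodomain factor of autonomic neurons, was at 6.03 per 10000 for Wistar and 7.82 for SHR. Hand2, a basic helix-loop-helix factor that maintains noradrenergic neurons, was at 0.250 and 0.452. Sp1 was at 0.347 and 0.163. Below the minimum, Sp3 was at 0.0816 and 0.0520 and Sox10, also a glial marker, at 0.0914 and 0.0169. The median log2 ratio of the 7 genes was -0.23.

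**Figure D5:**
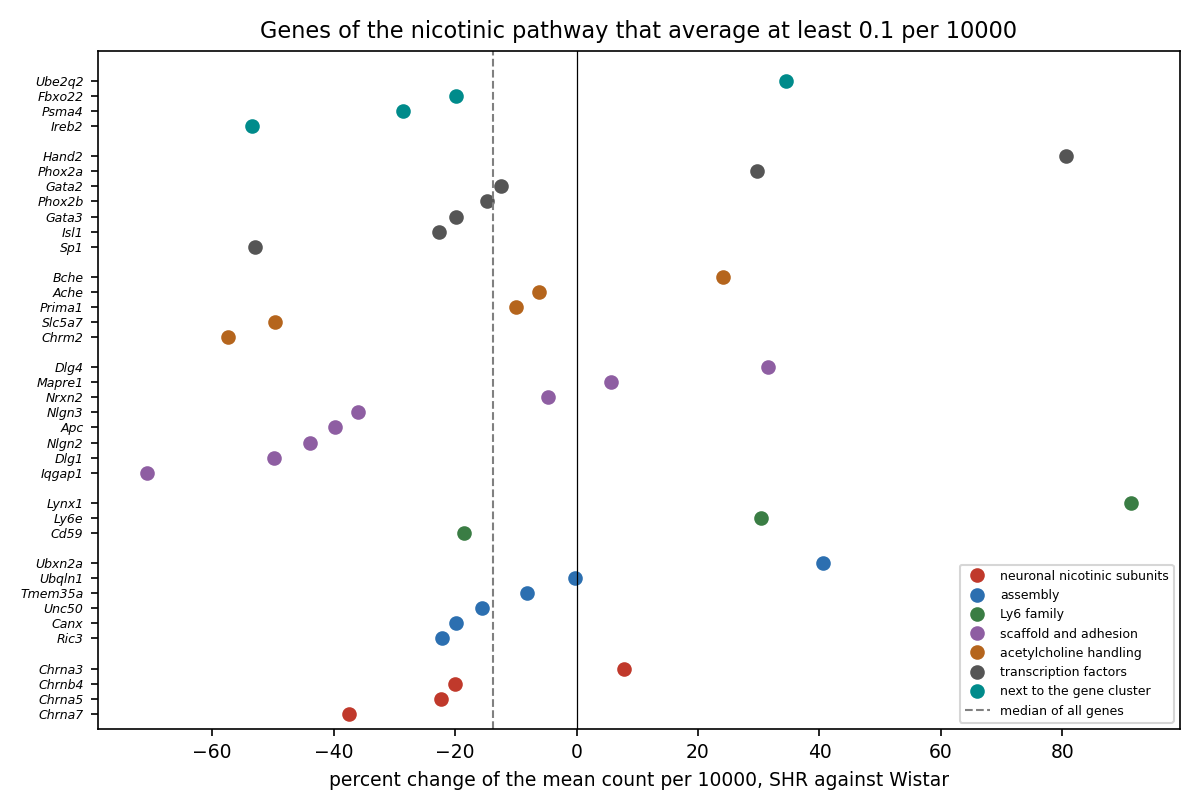
Percent change of the mean count per 10000, SHR against Wistar, for the nicotinic subunits and the genes of the related lists that average at least 0.1 per 10000, 1 point per gene and 1 color per list, with the median of all genes, -13.7%, as a dashed line. Chrna3 and Lynx1 lie to the right of 0, and Chrnb4, Chrna5 and Chrna7 lie to the left of the dashed line. Iqgap1, of the scaffold and adhesion list, lies farthest to the left, at -70.7%.

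The genes whose levels most resembled those of Chrna3 were found by the distance between log2 of 1 plus the mean over the 2 libraries. With 2 libraries this is a likeness of level and not of pattern. The 5 nearest were Hspa8 (distance 0.010), Psap (0.13), Klc1 (0.13), Fdps (0.15) and Tecr (0.16). Hspa8, the gene of a constitutive chaperone, was at 11.5 per 10000 for Wistar and 12.3 for SHR.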

How the data were processed

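Stellate ganglia of 5 to 6 week old Wistar rats and SHRs were sequenced with 10x Genomics single cell 3′ v3 chemistry, 1 library per strain. The submitters' processing notes name Cell Ranger 3.0.2, Seurat 3 and the rat assembly Rnor_6.0. How cells were filtered, how doublets were treated and how many neurons were averaged was not given in the sources used here. The authors deposited values on a natural log scale for the neuron cluster of each library, ln(1 + m) with m the average count per 10000 over its cells, and the averages m sum to 10000 in each library. A further deposited table holds the authors' own comparison of the strains (p-values, fold changes and shares of cells) and was not used.

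The 9 members and the related lists were chosen with earlier results of these data known. Values were converted with Python 3.11.15, NumPy 2.4.6 and pandas 2.3.3. The log2 difference, SHR minus Wistar, is that of the deposited logs divided by the natural log of 2, with a pseudocount of 1, which makes it small at low levels. The percent change and the log2 ratio use the means with no pseudocount. Counts of genes take those averaging at least 0.1 per 10000, and the fold of at least 1.5 is a fixed rule of size and not a test. The calculation was tested on simulated data. After 4 lines with repeated names were left out, 25395 genes remained. One item of the scaffold and adhesion list is not reported here and was left out of its counts. Named genes are the 9 members, genes of the lists fixed with them, and the 5 genes nearest to Chrna3 in level. Gene spans, gene order and promoters are from RefSeq on GRCr8, a different assembly from that of the deposited values, and were matched by symbol. The alternatives were other pseudocounts, scalings, centring, minimums and folds. Depth and the variation between animals are unknown.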

Additional observations from a re-analysis of the deposited data

How the results depend on the processing

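No paired analysis was possible because only 1 library per strain exists here. The signs of the log2 differences of the 6 members above 0 in both libraries held in 29 of 30 combinations with another pseudocount, scaling or centring. The exception was Chrnb2, whose difference became 0.051 when the median difference of all genes past the minimum was set to 0. A pseudocount cannot change a sign, so those combinations were fixed in advance. The markers of other cell types made up 0.0621% of the Wistar total and 0.0211% of the SHR total. Leaving them out could hardly change a sign either. The number of members lower by the fold was 1 at 1.5-fold, beside 26.5% of all genes. It became 3 at 1.2-fold (Chrna5, Chrna7 and Chrnb4), beside 46.0% of all genes, and 0 at 2-fold, beside 11.3%. It became 0 with the median log2 ratio set to 0, where the Chrna7 fold was 1.38, beside 17.3% of all genes. With a minimum of 1 per 10000, which only Chrna3 passes, it was 0, beside 11.6%. The number higher by 1.5-fold, 0, became 1 (Chrna2) with no minimum, beside 11.6% of all genes above 0 in both libraries. Chrna3 made up 79.1% of the summed members in Wistar and 83.3% in SHR when the deposited natural logs were summed in place of the means, since logs compress high levels. A total that excludes mitochondrial and ribosomal protein genes moved the log2 difference of Chrna3 from 0.10 to 0.14 and that of Chrna7 from -0.070 to -0.081. With no replicates and unknown depth, the difference of a member of low mean is the least reliable.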
